A study of Mus musculus with 8 samples.

Results

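The genes of elastic fibres, microfibrils and matricellular proteins were examined in the mesenchyme of mouse molars at PN day 3. The 37 genes were listed by name, as matrix genes of the periodontal ligament and the dental follicle that surrounds the tooth germ, and all 37 were found among the 20926 genes of the table. RNA-seq had been performed on 8 libraries from mice labelled as strain C57BL/6, while the methods describe the background as mixed. The libraries were 4 from *Ezh2fl/fl* mice (control), labelled with no Cre allele, and 4 from *Osr2KI-Cre;Ezh2fl/fl* mice, written *Osr2-Cre;Ezh2fl/fl* here and called mutant for short. Both groups carry floxed alleles of *Ezh2*, which encodes the methyltransferase of a Polycomb complex that trimethylates lysine 27 of histone H3, a mark of silenced chromatin. Cre is expressed from the *Osr2* locus and acts, around the molar, in the mesenchyme of the tooth and in the bone of its socket, and the labels state that the epithelium, where this Cre is not active, was taken off before RNA isolation. Epithelial keratin and cadherin transcripts were nevertheless present in all 8 libraries, at summed values of 1793 to 4245. The methods give 4 samples per group and also speak of 3 sequenced pairs, without saying which libraries these are, and neither they nor the labels say whether a library is a single pup or a pool, so the p-values below measure only the spread between these libraries, which may be technical.

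Elastic fibres are built from a core of cross-linked elastin on a scaffold of microfibrils. Microfibrils are polymers of fibrillin that also carry associated glycoproteins and latent TGF-beta complexes, and fibulins and lysyl oxidases bring elastin to them and cross-link it. The periodontal ligament is known for oxytalan fibres, which are bundles of microfibrils with little or no elastin. Matricellular proteins, such as tenascins, thrombospondins and periostin, are secreted into the matrix and act on cells more than they bear load, and periostin is a textbook marker of the ligament and follicle.

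The values used are the deposited normalised values, which carry no gene-length factor and in which the 75th percentile lies near 38.5 in every library. The estimated depth was 48.3 M to 68.8 M reads per library. *Ezh2* itself had values from 38.3 to 55.0 in the control libraries and from 23.2 to 36.0 in the mutant libraries, with no overlap (log2 fold change -0.46, limma, adjusted p = 0.235). Transcripts that mark dental mesenchyme (*Msx1*, *Pax9*, *Prrx1* and *Lhx8*) were present in all libraries, with sums of 183 to 220 in control and 259 to 294 in mutant. These sums did not overlap, with 1 of the 4 genes higher after limma's adjustment and 3 of 4 higher unadjusted, and the part of this difference in the members that rose was not tested. Enamel transcripts were still present. The sum of 6 enamel genes was 15720 and 28535 in control libraries 3 and 4 and 11435 in mutant library 3, against 697 to 2375 in the other 5 libraries. *Xist* was at 0.373 and 0.414 in control library 2 and mutant library 1 and at 401 to 2648 elsewhere, while the Y-linked *Ddx3y* was near 0 only in mutant libraries 2 and 3, at 0.0455 and 0.0424, so that 4 libraries held transcripts of both. In bulk tissue, fewer cells of a type and less RNA per cell cannot be told apart.

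Polycomb complexes are known to gather at promoters rich in unmethylated CG dinucleotides, so the start regions of 3 members with large or called differences are shown, with CG in capitals. RefSeq start regions on GRCm38.p6 were found for 24 of the 37 members, with 35 starts in all, and no sequence is printed for *Cthrc1* and *Mfap4*. The sequences are the bases before the start, read 5′ to 3′ on the strand of the gene, without those inside an annotated exon. *Tgfbi* is shown at chr13:56609336-56609522 on the plus strand. *Fbln5* is shown at chr12:101819120-101819369 and at chr12:101818485-101818733, both on the minus strand, and the latter lies in an intron. *Ltbp1* is shown at chr17:75005279-75005528 and at chr17:75178531-75178780, both on the plus strand, and the latter lies in an intron of the long transcripts.
Tgfbi: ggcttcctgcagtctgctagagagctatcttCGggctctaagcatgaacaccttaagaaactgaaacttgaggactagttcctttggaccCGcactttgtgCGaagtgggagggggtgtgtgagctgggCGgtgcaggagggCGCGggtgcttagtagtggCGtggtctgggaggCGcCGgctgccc
Fbln5, upstream start: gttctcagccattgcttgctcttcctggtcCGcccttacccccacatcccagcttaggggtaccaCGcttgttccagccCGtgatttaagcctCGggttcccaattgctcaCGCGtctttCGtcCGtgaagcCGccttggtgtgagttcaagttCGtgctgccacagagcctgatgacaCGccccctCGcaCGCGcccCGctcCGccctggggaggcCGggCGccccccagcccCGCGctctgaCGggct
Fbln5, intronic start: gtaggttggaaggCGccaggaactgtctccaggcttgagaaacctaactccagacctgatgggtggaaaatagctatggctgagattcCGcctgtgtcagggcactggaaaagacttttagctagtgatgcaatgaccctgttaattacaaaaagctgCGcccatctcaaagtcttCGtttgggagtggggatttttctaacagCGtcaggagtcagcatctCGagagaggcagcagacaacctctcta
Ltbp1, upstream start: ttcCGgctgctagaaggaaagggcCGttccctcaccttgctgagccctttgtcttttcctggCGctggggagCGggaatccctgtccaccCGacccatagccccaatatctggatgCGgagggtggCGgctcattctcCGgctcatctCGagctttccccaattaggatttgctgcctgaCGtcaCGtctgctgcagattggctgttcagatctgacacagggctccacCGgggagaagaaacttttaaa
Ltbp1, intronic start: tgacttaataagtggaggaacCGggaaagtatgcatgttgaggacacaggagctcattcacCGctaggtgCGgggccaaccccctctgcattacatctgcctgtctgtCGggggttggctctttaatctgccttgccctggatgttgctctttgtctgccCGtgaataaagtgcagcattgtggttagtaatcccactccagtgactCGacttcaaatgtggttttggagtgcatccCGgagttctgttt

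In the full window of 250 bases before the start, *Tgfbi* held 15 CG dinucleotides, the *Fbln5* starts 21 and 6, and the *Ltbp1* starts 12 and 7. The median was 10 over the 35 starts of the members and 6 over all 32851 starts of the table. At least 21 CG, the number of the upstream *Fbln5* start, were held by 16.3% of all starts, and at least 15, that of *Tgfbi*, by 27.3%. All 3 genes thus had a start with more CG than the median of all starts, whichever way they differed, which describes these letters and not binding. The TATA box letters TATAAA, searched on both strands, were in 4 of the 35 member starts and in 12.4% of all starts, and CCAAT, searched on both strands, was in 8 and in 33.8% of all. Among the sequences shown, the upstream starts of *Fbln5* and *Ltbp1* hold CCAAT, and TATAAA is in none of the 5 windows.

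Levels of different genes were compared per kilobase of annotated exon, since the values themselves grow with gene length. The matricellular tenascin-C gene *Tnc* was the highest of the 37 in control molars, at 140 ± 21.8 per kb (SD, n = 4). It was followed by *Mfap2*, which encodes a small glycoprotein bound to fibrillin, at 88.8 ± 5.82. *Fn1* (fibronectin), *Fbn2*, *Sparcl1*, *Fbln1* and *Tgfbi* came next with means from 57.7 to 68.8 and SDs of 8.14 to 18.2, so that the order among these 5 was within the spread of the libraries. The fibrillin genes were thus among the higher members, with *Fbn2* at 65.7 ± 18.2 and *Fbn1* at 36.6 ± 9.52 per kb. Elastin was not. *Eln* stood at 2.44 ± 0.535 per kb, and only *Mfap5* at 0.277 ± 0.139 and *Tnxb* at 0.0883 ± 0.0248 were lower. Smooth muscle transcripts, which mark an elastin-producing cell type, summed to 56.5 to 143 in control and 39.8 to 102 in mutant libraries, and their part in the *Eln* level was not tested.

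**Figure D1:**
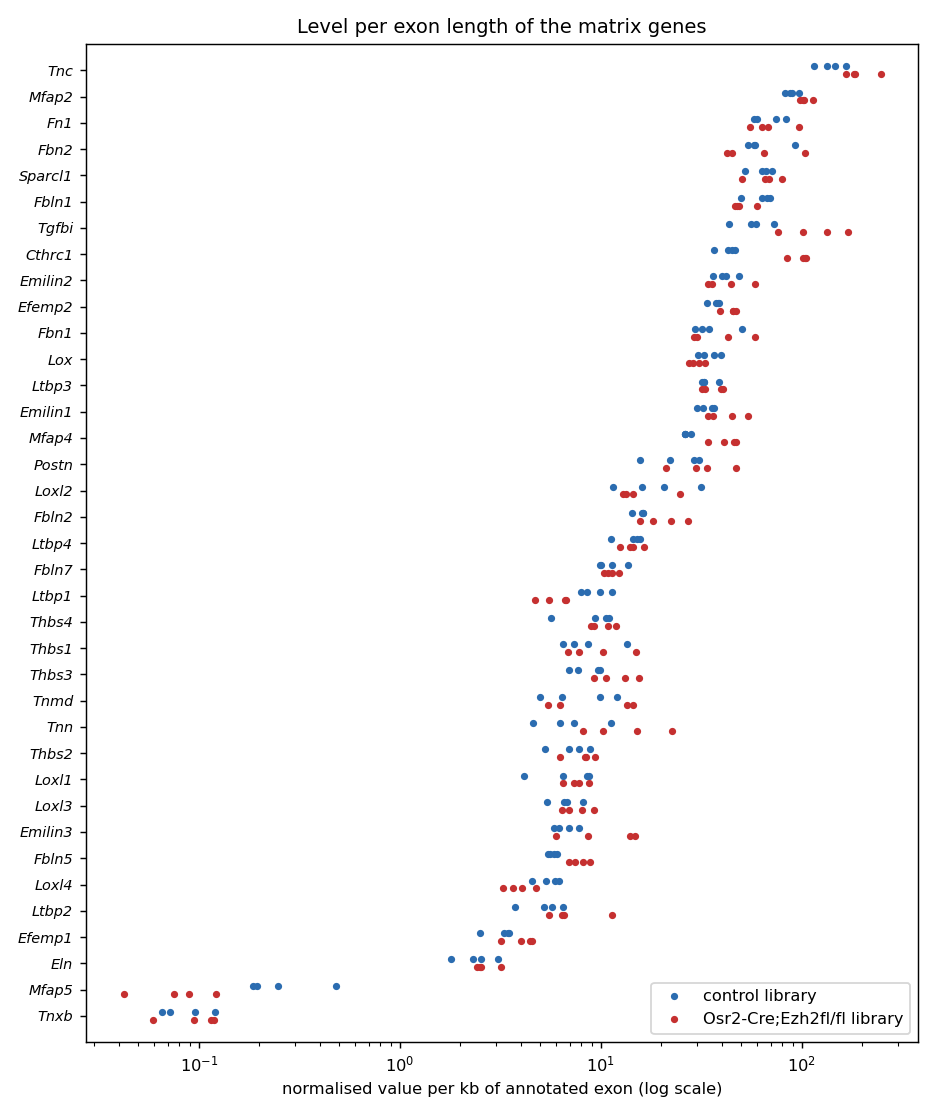
Normalised value per kilobase of annotated exon (x axis, log scale) of each of the 37 genes (y axis, ordered by the control mean), with 1 point for each library, control in blue and mutant in red. *Tnc* and *Mfap2* stand at the top and *Eln*, *Mfap5* and *Tnxb* at the bottom, and the mutant points of *Cthrc1* and *Tgfbi* lie to the right of the control points.

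Most of these genes did not pass the test between the groups, and the 4 that did lay in 4 different roles in the matrix. In limma's test over 14854 genes, with Benjamini-Hochberg adjustment over all of them, *Cthrc1*, *Mfap4* and *Fbln5* rose and *Ltbp1* fell in mutant molars. These are 3 of the 36 members tested that were higher (8.33%, against 1.56% of all genes tested) and 1 that was lower (2.78%, against 0.512%). At an unadjusted p under 0.05, 11 of 36 were higher (30.6%, against 8.27% of all genes) and 3 were lower (8.33%, against 4.87%). All 4 mutant libraries lay above all 4 control libraries in 6 of 36 members (16.7%, against 5.76%), and all lay below in 1 (2.78%, against 2.77%). The share with all mutant libraries below was thus near that of all genes. The median log2 fold change was 0.17 over the 36 members tested, with 30 positive and 6 negative (0.11 without control library 1), and 0.01 over all genes tested, of which 54.1% were positive. Scaling by median-of-ratios left 27 of 36 positive, quantile scaling 28 and array weights 22. The counts moved with single libraries. The number with an adjusted p under 0.05 was 2 without control library 1, 2 or 4 or mutant library 2 and 1 without control library 3. That with an unadjusted p under 0.05 was 9 in place of 14 without mutant library 2 or 4 (12.3% and 11.2% of all genes then, against 13.15%). That of members whose groups did not overlap was 12 in place of 7 without mutant library 1 (13.9% of all genes, against 8.53%). The counts over all genes moved too, from 308 with an adjusted p under 0.05 to between 129 and 429 with a library left out. With only the 5 libraries lowest in enamel transcripts, 1 member passed the adjusted and 9 the unadjusted threshold, where 8 and 1052 of the 14854 genes did. The groups did not overlap there in 10 of 36 members, against 22.5% of all genes.

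**Figure D2:**
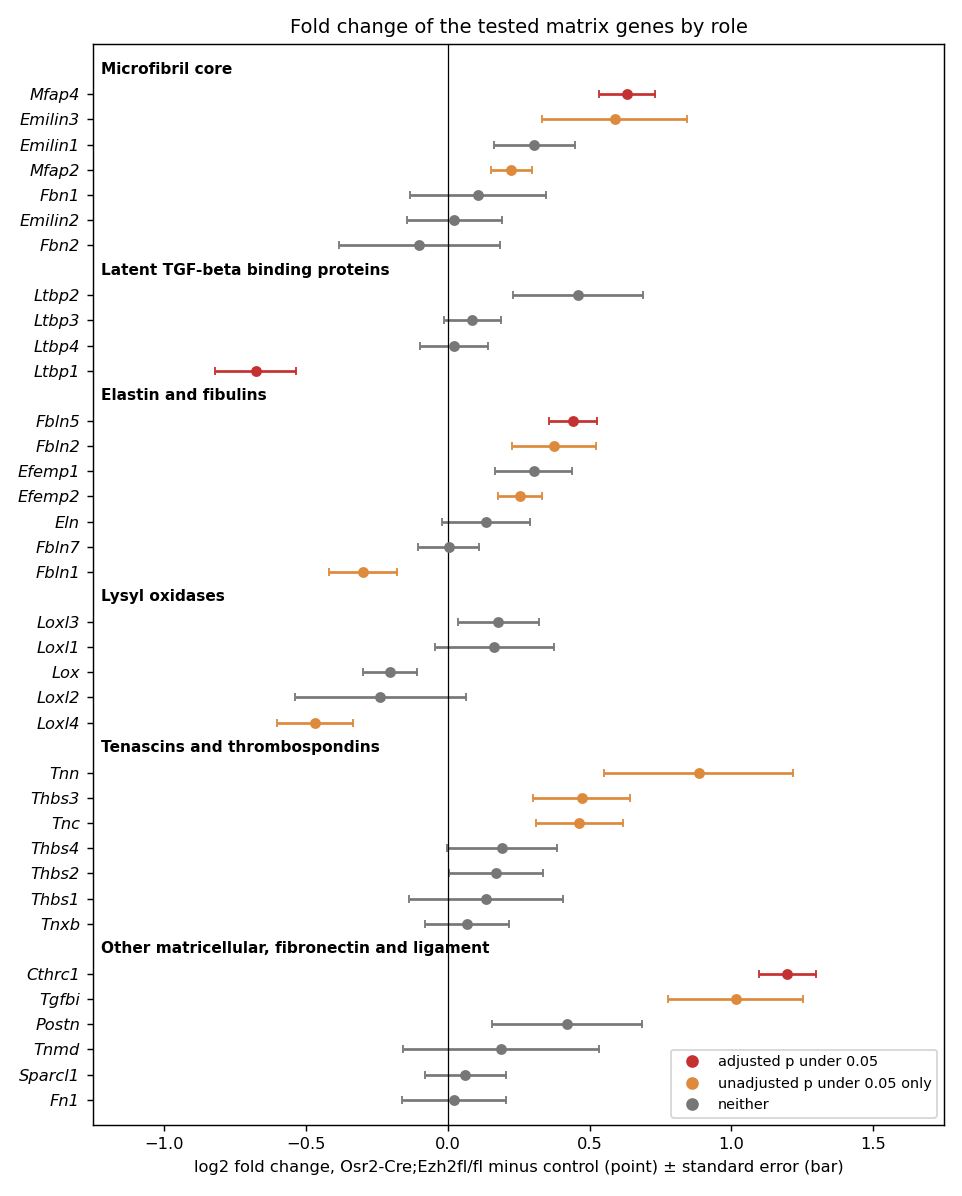
Log2 fold change on the log2(value + 1) scale (x axis, point) with its standard error from limma (bar) for the 36 genes tested (y axis), grouped by role, n = 4 libraries per group. *Cthrc1*, *Mfap4* and *Fbln5* to the right and *Ltbp1* to the left passed the adjusted threshold (red), and 10 more passed only the unadjusted one (orange).

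At the fibrillin core of the microfibril, no difference beyond the spread of the libraries was seen. *Fbn1*, the main fibrillin of postnatal tissue, had values of 613, 419, 358 and 386 in control libraries 1 to 4 and of 354, 710, 366 and 520 in mutant libraries 1 to 4. The groups overlapped over nearly their whole range, with a log2 fold change of 0.11 (SE 0.24, limma, adjusted p = 0.927). *Fbn2*, the fibrillin that prevails in development, ranged from 710 to 1226 in control and from 560 to 1363 in mutant (log2 fold change -0.10, SE 0.28). For both genes the highest library was mutant library 2 and the highest control was library 1, so the libraries of a group differed more than the group means. The share of *Fbn1* in the 2 fibrillins, per kb, was 35.9% ± 0.938 in control and 39.2% ± 2.05 in mutant (SD, n = 4 each), with overlap because mutant library 2, at 36.2%, lay below control library 2, at 37.3%.

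The genes for microfibril-associated glycoproteins lay on both sides of the controls. *Mfap4*, whose product binds fibrillin and tropoelastin, had values of 50.6, 53.9, 50.6 and 50.3 in control libraries 1 to 4 and of 78.4, 90.2, 65.6 and 88.5 in mutant libraries 1 to 4. It rose 1.57-fold, from 51.4 ± 1.72 to 80.7 ± 11.3 (SD, n = 4 each), with all mutant libraries above all controls (log2 fold change 0.63, SE 0.10, limma, adjusted p = 0.0124). The call was kept in 18 of 21 alternatives, with adjusted p-values from 2.33e-05 to 0.130, and was lost among others without control library 3 (adjusted p = 0.0572) and with only the 5 libraries lowest in enamel transcripts (log2 fold change 0.70, adjusted p = 0.130). *Mfap4* lies on the plus strand of chromosome 11 (61485431 to 61488900) and overlaps *Mapk7* on the opposite strand. Whether reads were counted by strand is not stated in the sources used here, so reads of the overlap cannot be assigned to either gene with certainty.

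*Mfap2* had values of 99.9, 117, 106 and 108 in the control libraries and of 125, 137, 119 and 122 in the mutant libraries. These groups did not overlap, although the means, 108 ± 7.05 and 126 ± 7.84 (SD, n = 4), are only 1.17-fold apart (log2 fold change 0.22, SE 0.07, limma, unadjusted p = 0.0115, adjusted p = 0.187). *Mfap5*, which encodes a relative of the *Mfap2* product, was low in every library and lay the other way. It stood at 0.695, 0.885, 0.671 and 1.73 in the control libraries and at 0.322, 0.152, 0.438 and 0.271 in the mutant libraries, each in the order 1 to 4. In estimated reads these are 39, 65, 38 and 112 in control and 16, 9, 30 and 20 in mutant, so every mutant library was below every control. The ratio of the means was 3.36 (exact permutation, two-sided p = 0.0286, which no arrangement of 4 against 4 can go below). *Mfap5* did not pass the filter on low values, and without that filter limma gave a log2 fold change of -0.60 (SE 0.15) with an adjusted p of 0.0963 over all 20926 genes. Within the 3 Mfap genes, per kb, the share of *Mfap4* was 23.1% ± 0.748 in control and 28.7% ± 2.30 in mutant and that of *Mfap2* was 76.7% ± 0.701 and 71.3% ± 2.28 (SD, n = 4 each), without overlap for either. Of the 30 such shares compared over the families, 5 did not overlap, all 3 Mfap shares among them (exact permutation, adjusted p = 0.171 for each of the 5). Shares of 1 family move against each other, so these are not separate results and the lower share of *Mfap2* is no lower value.

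The emilins are elastin-microfibril interface proteins. *Emilin3* had values of 27.7, 24.8, 22.0 and 20.7 in control libraries 1 to 4 and of 21.2, 52.4, 30.5 and 49.4 in mutant libraries 1 to 4. Mutant library 1 lay among the controls and the other 3 mutant libraries above them, which gave a log2 fold change of 0.59 (SE 0.26, limma, unadjusted p = 0.0456, adjusted p = 0.361). *Emilin1* ranged from 149 to 181 in control and from 169 to 267 in mutant (log2 fold change 0.31, SE 0.14, adjusted p = 0.412), and without mutant library 2 the log2 fold change was 0.18. *Emilin2*, which had the highest value per kb of the 3 in control, was at 229 ± 29.4 and 237 ± 62.0 (SD, n = 4 each) and differed by less than the spread.

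Latent TGF-beta binding proteins tie the inactive cytokine to microfibrils, and of the 4 genes only *Ltbp1* was called. The control libraries had 122, 106, 90.9 and 84.9 and the mutant libraries 59.0, 70.5, 50.1 and 72.0, in the order 1 to 4. The lowest control was above the highest mutant library, and the mean fell from 101 ± 16.6 to 62.9 ± 10.3 (SD, n = 4 each), 1.61-fold lower (log2 fold change -0.67, SE 0.14, limma, adjusted p = 0.0473). The size held better than the call. With any 1 of the 8 libraries left out the log2 fold change was between -0.75 and -0.57 while the adjusted p was between 0.0569 and 0.142, and over all 21 alternatives it was between 0.000916 and 0.163. *Ltbp1* lies on the plus strand of chromosome 17 (75005568 to 75392512), and *Gm6276* lies within it on the same strand.

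The other 3 genes of the family were not called and had positive log2 fold changes, though those of *Ltbp3* and *Ltbp4* were negative under array weights and that of *Ltbp4* also with median-of-ratios scaling and without some single libraries, and their difference from *Ltbp1* was not tested. *Ltbp2*, whose product binds fibrillin but not latent TGF-beta, ranged from 30.5 to 52.9 in control and from 45.0 to 93.0 in mutant (log2 fold change 0.46, SE 0.23, adjusted p = 0.457), and the log2 fold change was 0.24 without mutant library 2 and 0.31 without control library 3. *Ltbp3* ranged from 290 to 350 and from 289 to 366 (log2 fold change 0.09, SE 0.10). *Ltbp4*, which also takes part in elastic fibre assembly, ranged from 72.4 to 102 and from 80.2 to 105 (log2 fold change 0.02, SE 0.12). Per kb, *Ltbp3* made up 54.0% ± 2.07 of the family in control and 56.6% ± 3.24 in mutant, and *Ltbp1* made up 15.1% ± 2.94 and 9.30% ± 1.87 (SD, n = 4 each). The share of *Ltbp1* in control library 4, at 11.68%, lay just below that in mutant library 4, at 11.72%, so the groups overlapped.

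Elastin showed no difference beyond its spread. *Eln* had values of 14.6, 25.0, 18.8 and 20.5 in control libraries 1 to 4 and of 25.9, 20.5, 20.2 and 19.5 in mutant libraries 1 to 4. The lowest of the 8 was control library 1 and the highest mutant library 1, and the log2 fold change was 0.13 (SE 0.16, limma, adjusted p = 0.834). It was 0.0050 without control library 1, 0.046 without mutant library 1, 0.25 without control library 2 and -0.051 under array weights.

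Among the fibulins, which link elastin to microfibrils and to cells, *Fbln5* was called. The 4 control libraries had 37.5, 41.7, 40.4 and 38.5 and the 4 mutant libraries 51.6, 56.5, 61.0 and 47.9, in the order 1 to 4. The controls were tight and all mutant libraries lay above them, and the mean rose 1.37-fold from 39.5 ± 1.85 to 54.3 ± 5.73 (SD, n = 4 each; log2 fold change 0.44, SE 0.08, limma, adjusted p = 0.0303). *Fbln5*, which encodes an integrin-binding fibulin needed for elastic fibre assembly, lies on the minus strand of chromosome 12 (101746565 to 101819055) and overlaps no other annotated gene. The call was lost, with log2 fold changes from 0.42 to 0.47, without control libraries 1, 2, 3 and 4 and mutant library 2 (adjusted p = 0.0721, 0.0759, 0.104, 0.0937 and 0.0860), and its 21 alternatives gave adjusted p-values from 0.00688 to 0.374, the highest with only the 5 libraries lowest in enamel transcripts (log2 fold change 0.38).

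*Efemp2*, which encodes fibulin-4, a carrier of lysyl oxidase to tropoelastin, had values of 145, 146, 128 and 141 in the control libraries and of 171, 178, 149 and 172 in the mutant libraries. The groups did not overlap, with mutant library 3 only just above the highest control (log2 fold change 0.25, SE 0.08, limma, unadjusted p = 0.0087, adjusted p = 0.158). *Fbln2*, found in developing matrix and vessel walls, had values of 91.0, 104, 102 and 103 in control libraries 1 to 4 and of 100, 172, 116 and 142 in mutant libraries 1 to 4. Mutant library 1 lay among the controls (log2 fold change 0.37, SE 0.15, unadjusted p = 0.0311, adjusted p = 0.308). *Fbln1* had values of 218, 277, 293 and 302 in the control libraries and of 260, 207, 203 and 213 in the mutant libraries. It was lower in mutant by its means, 272 ± 37.9 and 221 ± 26.3 (SD, n = 4 each), but library 1 of each group lay apart from its group and the groups overlapped (log2 fold change -0.30, SE 0.12, limma, unadjusted p = 0.0333, adjusted p = 0.317). *Efemp1*, which encodes fibulin-3, was at 6.48 ± 0.931 and 8.24 ± 1.28, and *Fbln7* was at 36.3 ± 5.56 and 36.2 ± 2.64 (SD, n = 4 each). Within the family of 6 fibulin genes, per kb, the shares of *Fbln5* (4.24% ± 0.201 in control and 5.70% ± 0.904 in mutant) and *Efemp2* (27.4% ± 2.40 and 31.9% ± 0.665) did not overlap between the groups (SD, n = 4 each). The adjusted exact permutation p was 0.171 for both.

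The lysyl oxidases, copper enzymes that cross-link elastin and collagen, had a negative median log2 fold change (-0.20 over 5 genes, against 0.01 over all genes tested), and no member of it was called. The median was 0.02 without control library 4 and 0.05 with the enamel transcripts as a covariate. It was negative under the other alternatives, but only -0.0021 with the 5 libraries lowest in enamel transcripts. The other roles had positive medians, except that of the latent TGF-beta binding proteins (0.05) was -0.11 under array weights and -0.01 without control library 1. *Loxl4* had values of 22.6, 25.0, 26.1 and 19.2 in control libraries 1 to 4 and of 13.7, 15.3, 20.1 and 17.1 in mutant libraries 1 to 4. Control library 4 lay below mutant library 3, and all other controls were above all mutant libraries (log2 fold change -0.47, SE 0.13, limma, unadjusted p = 0.00608, adjusted p = 0.133). *Lox*, the founding member, ranged from 145 to 189 in control and from 131 to 158 in mutant (log2 fold change -0.20, SE 0.10, adjusted p = 0.427). *Loxl1*, which is tied to elastin cross-linking, ranged from 13.7 to 28.8 and from 21.4 to 28.8 (log2 fold change 0.17, SE 0.21). *Loxl3* ranged from 24.8 to 37.6 and from 29.4 to 42.4 (log2 fold change 0.18, SE 0.14). *Loxl2* was highest in the 3 libraries rich in enamel transcripts. It had 111 and 170 in control libraries 3 and 4 and 134 in mutant library 3, and 62.0 to 86.5 in the other 5 libraries, and the part of enamel epithelium in this was not tested.

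Tenascins and thrombospondins had 7 of 7 positive log2 fold changes, with a median of 0.19, under all scalings tried, though 3 of 7 (*Thbs1*, *Thbs2* and *Thbs4*) were negative under array weights and 1 without control library 1 or mutant library 3. The median was between 0.091 (without control library 1) and 0.35 (without control library 4) with a library left out. None passed limma's adjusted threshold, and *Tnc*, *Tnn* and *Thbs3* passed the unadjusted one. *Tnc* had values of 1295, 1137, 894 and 1030 in control libraries 1 to 4 and of 1285, 1914, 1410 and 1420 in mutant libraries 1 to 4. Only the highest control and the lowest mutant library, both numbered 1, crossed (log2 fold change 0.46, SE 0.15, limma, unadjusted p = 0.0134, adjusted p = 0.204). *Tnn*, which encodes tenascin-N (tenascin-W), known from bone and periosteum, had values of 65.3, 36.3, 26.7 and 42.5 in the control libraries and of 47.7, 132, 59.5 and 87.5 in the mutant libraries. Its highest library was 4.93 times its lowest, and the log2 fold change of 0.88 (SE 0.33, unadjusted p = 0.025, adjusted p = 0.275) was among the larger ones and had a large error. *Thbs3*, a thrombospondin of skeletal tissue, had values of 46.9, 48.0, 33.5 and 37.3 in the control libraries and of 44.4, 74.4, 51.4 and 63.3 in the mutant libraries. Again mutant library 1 lay among the controls (log2 fold change 0.47, SE 0.17, limma, unadjusted p = 0.0207, adjusted p = 0.252).

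The remaining genes of this role overlapped widely. *Thbs2* and *Thbs4* had log2 fold changes of 0.17 (SE 0.17) and 0.19 (SE 0.19), and control library 1 was the lowest of the 8 for both. *Thbs1*, an activator of latent TGF-beta, was highest in mutant library 3 (90.5) and control library 4 (81.9), which are rich in enamel transcripts, and ranged from 39.4 to 62.0 in the other 6 libraries, with 52.2 in control library 3, which is also rich in them (log2 fold change 0.13, SE 0.27). *Tnxb* was the lowest of the 37 per kb, with values from 0.720 to 1.47 over all 8 libraries. Within the tenascins, per kb, *Tnc* held 95.1% ± 1.14 in control and 93.4% ± 1.77 in mutant (SD, n = 4 each).

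*Cthrc1* had the largest log2 fold change of the 36 members tested with all 8 libraries at equal weight (under array weights those of *Tgfbi*, 1.34, and *Tnn*, 1.29, were above its 1.21, and without mutant library 1 that of *Tgfbi*, 1.21, was above its 1.17) and was the only member called in every alternative. It encodes a secreted collagen triple helix repeat protein, known from remodelling vessels and from bone. Control libraries 1 to 4 had 71.2, 74.4, 68.0 and 58.1 and mutant libraries 1 to 4 had 167, 166, 134 and 161. The lowest mutant library was far above the highest control, and the mean rose 2.31-fold from 67.9 ± 7.07 to 157 ± 15.5 (SD, n = 4 each; log2 fold change 1.20, SE 0.10, limma, adjusted p = 0.000769). Its 21 alternatives kept the adjusted p under 0.05, between 6.07e-06 and 0.0233, and with any 1 library left out the log2 fold change was between 1.12 and 1.27. *Cthrc1* lies on the plus strand of chromosome 15 (39076932 to 39087121) and overlaps no other annotated gene. Per kb it went from the 8th highest of the 37 in control, at 42.6 ± 4.44, to 98.5 ± 9.76 in mutant.

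The fasciclin-domain genes *Tgfbi* and *Postn* encode related adhesion proteins, and their values were less even. *Tgfbi*, a TGF-beta-induced gene, had values of 274, 210, 164 and 223 in control libraries 1 to 4 and of 288, 636, 384 and 504 in mutant libraries 1 to 4. All mutant libraries were above all controls, but library 1 of the mutants only by a small margin over library 1 of the controls. The ratio of means was 2.08 (218 ± 45.4 and 453 ± 151, SD, n = 4 each), and the log2 fold change of 1.01 (SE 0.24, limma) had an adjusted p of 0.0717. Without mutant library 1 it was called (log2 fold change 1.21, adjusted p = 0.0221), and its 21 alternatives gave adjusted p-values from 0.000263 to 0.610. *Tgfbi* lies on the plus strand of chromosome 13 (56609523 to 56639562) and overlaps no other annotated gene.

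*Postn*, the ligament and follicle marker, had values of 137, 269, 192 and 252 in control libraries 1 to 4 and of 184, 295, 410 and 259 in mutant libraries 1 to 4. Its groups overlapped, with a log2 fold change of 0.42 (SE 0.26, limma, adjusted p = 0.594), which was 0.23 without control library 1 or without mutant library 3. *Fn1*, the adhesive glycoprotein on which fibrillin is deposited, had values of 975, 868, 702 and 672 in the control libraries and of 647, 1126, 740 and 789 in the mutant libraries. The highest and the lowest of the 8 were both mutant libraries, and the log2 fold change was 0.02 (SE 0.18, adjusted p = 0.98). *Tnmd*, which encodes tenomodulin of tendon and ligament, had values of 6.78, 8.69, 16.2 and 13.4 in the control libraries and of 19.5, 8.48, 18.2 and 7.42 in the mutant libraries. Mutant libraries 1 and 3 lay above all controls and the other 2 among them (log2 fold change 0.19, SE 0.35, limma, adjusted p = 0.909). *Sparcl1*, a relative of osteonectin, was at 185 ± 23.9 and 195 ± 35.6 (SD, n = 4 each).

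**Figure D3:**
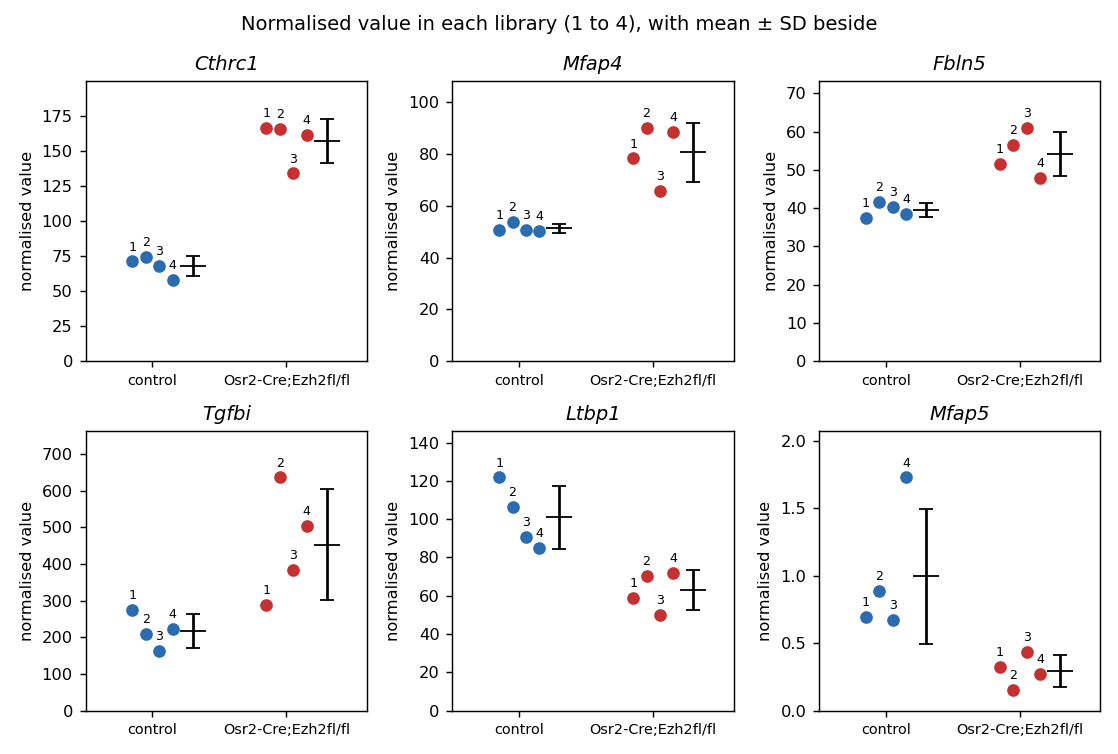
Normalised value (y axis, from 0, a separate scale in each panel) of *Cthrc1*, *Mfap4*, *Fbln5*, *Tgfbi*, *Ltbp1* and *Mfap5* in each library (points, numbered 1 to 4 within each group), with the mean and SD of the group beside them. The groups do not overlap in any of the 6 panels, and the gap is widest for *Cthrc1* and narrow for *Tgfbi*, where mutant library 1 stands at 288 and control library 1 at 274.

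The libraries of a group were not alike over the 37 genes. Mutant library 2 held the highest of the 8 values in 17 of the 37 members, and control library 1 held the lowest in 12 and control library 3 in 10. The same was not counted over all genes, so whether this is particular to the members is not known. Among the mutant libraries, 11 of the 37 members (29.7%, against 8.13% of all genes tested) had the same order, with library 2 highest, then 4, then 3 and library 1 lowest. They were *Tgfbi*, *Tnn*, *Emilin3*, *Emilin1*, *Fbln2*, *Loxl3*, *Tnc*, *Thbs3*, *Fbn1*, *Fbn2* and *Fn1*, so the order was also that of genes whose groups overlapped widely. Cartilage transcripts (*Col2a1*, *Acan* and *Col9a1*) had that order too, with sums of 31.2, 76.8, 53.0 and 65.8 in mutant libraries 1 to 4, against 12.9 to 19.4 in control. All 3 of these cartilage genes passed the adjusted threshold as higher in mutant. The dental mesenchyme sum shared the order, at 259, 294, 268 and 273 in mutant libraries 1 to 4, against 183 to 220 in control. Bone transcripts, with sums of 296 to 392 in control and 515 to 711 in mutant and 1 of 4 genes called higher, were highest in mutant library 1 and lowest in mutant library 2. Among the controls, *Tgfbi* and *Tnn* were highest in library 1 and lowest in library 3, and the cartilage sum was highest in library 2 and lowest in library 3. The part of cartilage, bone and dental mesenchyme cells in these genes was not tested.

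**Figure D4:**
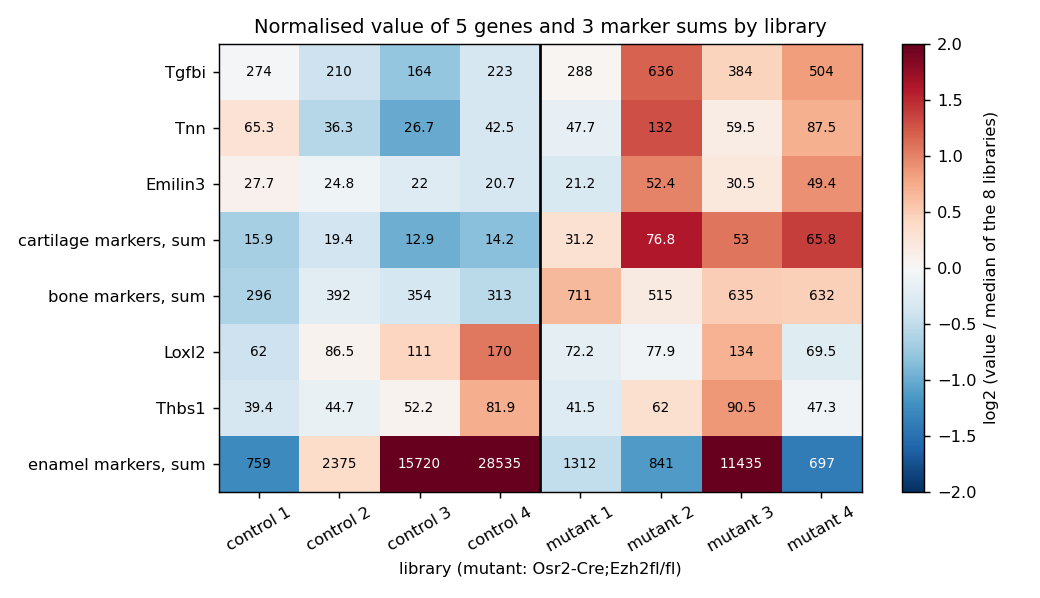
Normalised value of 5 genes and the sums of 3 marker lists (rows) in the 8 libraries (columns), with the value in each cell and the colour showing log2 of the value over the row's median, limited to -2 and 2. In the mutant libraries *Tgfbi*, *Tnn* and *Emilin3*, which are 3 of the 11 members with this order, and the cartilage sum share their order, *Loxl2* is highest in the 3 libraries with high enamel sums and *Thbs1* in 2 of them.

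Endothelial transcripts were lower in all mutant libraries, with sums of 290 to 323 in control and 249 to 275 in mutant. Of the 4 genes, 0 were called by limma after adjustment and 3 were lower at an unadjusted p under 0.05. The sums of the lists that follow overlapped between the groups. Ligament and follicle transcripts, a list that includes *Postn* and *Tnmd*, summed to 1119 to 1468 and 942 to 1734. Of 5 genes tested, 1 (*Aspn*) was called higher and 2 were higher unadjusted. Most of this sum was *Col12a1*, with means of 1078 in control and 958 in mutant, so it says little about the other genes of the list. Odontoblast transcripts were at 1945 to 3394 and 1082 to 2738 and epithelial keratin and cadherin transcripts at 1865 to 4245 and 1793 to 2516, with 0 genes called by limma in either list, and 2 of 4 and 1 of 5 lower unadjusted. Those of macrophages were at 64.3 to 112 and 82.5 to 90.0, of Schwann cells at 6.12 to 11.5 and 6.89 to 10.5 and of skeletal muscle at 3.81 to 29.3 and 0.585 to 6.62, and limma called 0 genes in these 3 lists and in that of smooth muscle, also unadjusted. The part of any of these cell types in the called members was not tested.

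Genes that work with the members were examined from 4 further lists. Of 26 partners of elastic fibres and microfibrils (ADAMTS-like proteins, TGF-beta ligands, proteases and proteoglycans), 0 passed limma's adjusted threshold, and 4 were higher and 3 lower at an unadjusted p under 0.05. Of all genes tested, 1.56% were higher and 0.512% lower after adjustment and 8.27% and 4.87% unadjusted, and with lists this short the counts of all 4 lists stand beside these shares as a description only. The smallest p-values belonged to *Adamtsl5*, a secreted ADAMTS-like protein gene, at 14.4 ± 1.82 in control and 21.1 ± 3.00 in mutant (log2 fold change 0.52, SE 0.12, adjusted p = 0.0725), and to *Tgfb1*, the cytokine held by latent TGF-beta binding proteins. *Tgfb1* was at 103 ± 4.75 and 85.8 ± 6.79 (SD, n = 4 each), without overlap (log2 fold change -0.26, SE 0.07, limma, adjusted p = 0.122). The median log2 fold changes were 0.07 for the partners, 0.003 for the other matricellular genes, -0.08 for the receptors and -0.10 for the ligament and follicle genes, against 0.01 over all genes tested.

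Of 25 other matricellular genes, 21 could be tested. None passed limma's adjusted threshold, while 5 were higher and 3 lower at an unadjusted p under 0.05. *Spon1* (spondin-1) was at 125 ± 7.49 and 163 ± 24.1 (log2 fold change 0.37, SE 0.10, adjusted p = 0.126), and *Wisp1*, of the CCN family, was at 154 ± 16.0 and 118 ± 15.6 (SD, n = 4 each; log2 fold change -0.38, SE 0.11, adjusted p = 0.13). Of 13 fibronectin and matrix receptor genes, 0 passed the adjusted threshold, and 1 was higher and 2 lower unadjusted. *Itga8*, an integrin chain that binds fibronectin and tenascin-C, was at 18.0 ± 2.87 and 28.8 ± 7.73 (log2 fold change 0.62, SE 0.19, limma, adjusted p = 0.157). *Itgb8*, a chain of the integrin that binds latent TGF-beta, was at 7.59 ± 0.682 and 5.63 ± 0.864 (SD, n = 4 each), without overlap (log2 fold change -0.38, SE 0.12, adjusted p = 0.159).

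The ligament and follicle genes were the list with calls. Of 14 tested of 16, *Pth1r* and *Aspn* rose and *Egr1* fell at an adjusted p under 0.05, and 3 were higher and 3 lower at an unadjusted p under 0.05. *Pth1r*, the receptor of parathyroid hormone-related protein in the follicle, went from 43.5 ± 3.57 to 61.5 ± 3.95 (log2 fold change 0.49, SE 0.08, limma, adjusted p = 0.0133), and the call was lost without control library 3 (adjusted p = 0.0666) or mutant library 4 (0.0547) and with the 5 libraries (0.340), and was kept in 17 of 21 alternatives. *Egr1*, a transcription factor that is also an immediate early gene, went from 22.1 ± 3.74 to 11.7 ± 1.23 (log2 fold change -0.86, SE 0.13, adjusted p = 0.00905), and it was called in 19 of 21 alternatives, with any 1 library left out among them, but not with only the 5 libraries lowest in enamel transcripts (adjusted p = 0.193). *Aspn* (asporin), a small leucine-rich proteoglycan of the ligament, went from 22.7 ± 8.66 to 68.8 ± 29.7 (SD, n = 4 each), 3.02-fold (log2 fold change 1.56, SE 0.33, limma, adjusted p = 0.0499). That call was kept in only 3 of 21 alternatives and was lost with any 1 library left out (adjusted p from 0.0550 to 0.134). *Pth1r* overlaps *Myl3* and *Aspn* overlaps *Cenpp* on the opposite strand.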

How the data were processed

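RNA-seq values of 8 libraries, 4 control (*Ezh2fl/fl*) and 4 *Osr2-Cre;Ezh2fl/fl*, were analysed. Sample labels gave the groups and replicate numbers, all libraries were kept, and 0 further columns of sample values stand in the table. The paper's methods describe single-end reads of 75 cycles aligned to mm10 with TopHat and normalized by RPKM, while the submitters' processing notes name CASAVA 1.8.2, STAR 2.5.3a and Partek. The deposited values were handled as a signal, since they carry no gene-length factor, are never 0 and share their 75th percentile. Of the values under 20 times a library's smallest, 62.5% (58.9% to 64.4% in single libraries) were whole multiples of it within 0.02, so no test for counts was run. Estimated reads are the value divided by the smallest value of the library, minus 1. They take that smallest value as 1 added read, which was not tested, and carry counting error besides. Each value of 1 read corresponded to 0.0129 to 0.0190.

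A linear model was fitted to log2(value + 1) with limma 3.58.1 (R 4.3.3), moderated by eBayes along the mean-variance trend. Genes needed a value of 1 or more in 4 or more libraries, which left 14854, and p-values were adjusted over these (Benjamini-Hochberg). This scale understates the change of low genes. The exact permutation test was two-sided over the 70 arrangements of the libraries. The members and lists were chosen with earlier results of these data known. Every member is named, and of the other lists each gene with an adjusted p under 0.05 and the 2 with the smallest p. The values of all 8 libraries are given for members with an unadjusted p under 0.05, for those whose groups did not overlap, and for *Postn*, *Eln*, *Fbn1*, *Fn1* and *Tnmd*. The model was run on simulated data with a common spread for all genes. Those data lack the differences between these libraries, such as in enamel transcripts, and so do not test the calls above. Coordinates and exon lengths are those of GENCODE mouse release M21 on GRCm38, in which 17 members overlap a gene on the opposite strand and 3 a gene on the same strand, and start regions are those of RefSeq. Python 3.11.15, pandas 2.3.3 and matplotlib 3.10.9 were used.

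The alternatives were pseudocounts of 0.1 and 5, no filter, a filter at a value of 10, median-of-ratios and quantile scaling, no trend, robust moderation, array weights, the replicate block, the enamel transcripts *Amelx*, *Ambn* and *Enam* or *Xist* as a covariate, an adjusted p under 0.1, and each library left out in turn. A further one, with only the 5 libraries lowest in enamel transcripts, was chosen after the data were seen.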

Additional observations from a re-analysis of the deposited data

Results flagged for a closer look

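In the 74 groups of 4 libraries examined for the 37 genes, the highest or lowest library stood far from the other 3 in 6, and chance gives about 1 in 20 groups, or 3.7. *Fbn2* was at 1226 in control library 1, with 710 to 769 for its 3 companions. *Fbln2* was at 91.0 in the same library, against 102 to 104, and these moved in opposite directions. *Mfap4* was at 53.9 in control library 2, against 50.3 to 50.6, where the other 3 controls were nearly equal. *Ltbp3* was at 350 in control library 4, against 290 to 297. *Eln* was at 25.9 in mutant library 1, against 19.5 to 20.5. *Cthrc1* was at 134 in mutant library 3, against 161 to 167 in the other mutant libraries, and it was above every control there too.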

How the results depend on the processing

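Of 836 values of single genes under an alternative, 724 kept their direction and side of the threshold, 50 kept the direction and lost the call, 16 gained a call (15 of them under array weights) and 46 changed sign, in 15 of 40 genes. The number of members with an adjusted p under 0.05 was 18 under array weights (mutant library 4 then weighs 9.66, and 27.2% of all genes are called in place of 2.07%), 2 with *Xist* as a covariate (1.71% of all genes), 1 with the 5 libraries lowest in enamel transcripts, and 1 to 4 with a library left out (129 to 429 of all genes). That with an unadjusted p under 0.05 was 22 under array weights (40.7% of all genes), 9 with the 5 libraries (7.08%) and 9 to 17 with a library left out (1277 to 2239 of all 14854 genes). That of members whose groups did not overlap was 7 to 12 with a library left out (9.33% to 14.6% of all genes), 6 with median-of-ratios scaling (8.57%) and 10 with the 5 libraries (22.5%). The median log2 fold change was 0.11 to 0.26 with a library left out. Whether libraries with the same number form pairs is not known. Measured from its group mean, each library correlated across genes with its namesake at -0.342, -0.0769, 0.215 and -0.434, which cannot show whether they were collected as pairs. The replicate block left 1 member with an adjusted p under 0.05, *Cthrc1*, with 0.0595 for *Mfap4*, 0.105 for *Fbln5*, 0.107 for *Ltbp1*, 0.0528 for *Egr1*, 0.125 for *Pth1r* and 0.0731 for *Aspn* (73 of all genes were called). *Aspn* kept its call only under array weights, with the enamel transcripts as a covariate and with a pseudocount of 5. *Ltbp1* also lost its call without the filter, with a filter at 10, with quantile scaling and without the trend. *Mfap4*, *Fbln5* and *Ltbp1* lost theirs with the 5 libraries, and *Fbln5* and *Ltbp1* with *Xist*. Log2 fold changes that changed sign under array weights were those of *Fbn2* (0.14), *Emilin2* (-0.11), *Ltbp3* (-0.034), *Ltbp4* (-0.19), *Eln* (-0.051), *Loxl1* (-0.086), *Thbs1* (-0.061), *Thbs2* (-0.21), *Thbs4* (-0.060) and *Tnmd* (-0.50). With the enamel transcripts as a covariate they were those of *Fbn1* (-0.15), *Emilin2* (-0.12), *Fbln7* (-0.12), *Loxl2* (0.20) and *Fn1* (-0.14), and with the 5 libraries those of *Emilin2* (-0.0013), *Fbln7* (-0.11) and *Fn1* (-0.15). With median-of-ratios scaling they were those of *Ltbp4* (-0.00068), *Fbln7* (-0.018) and *Fn1* (-0.00034), and with quantile scaling those of *Fbln7* (-0.00084) and *Fn1* (-0.014), with the median of all genes moving from 0.01 to -0.009 under the former. With a library left out they spanned -0.094 to 0.27 for *Fbn1*, -0.36 to 0.079 for *Fbn2*, -0.13 to 0.13 for *Emilin2*, -0.084 to 0.087 for *Ltbp4*, -0.050 to 0.10 for *Fbln7*, -0.053 to 0.29 for *Loxl1*, -0.46 to 0.016 for *Loxl2*, -0.079 to 0.35 for *Thbs1*, -0.018 to 0.29 for *Thbs4*, -0.14 to 0.13 for *Fn1*, -0.034 to 0.19 for *Sparcl1* and -0.018 to 0.41 for *Tnmd*, and without a change of sign 0.24 to 0.50 for *Fbln2*, 0.033 to 0.15 for *Ltbp3*, 0.080 to 0.27 for *Loxl3*, 0.032 to 0.29 for *Thbs2* and 0.0039 to 0.18 for *Tnxb*. Other than where a setting leaves out libraries, the cause was not tested. At this depth *Mfap5* had 9 to 112 estimated reads per library and did not pass the filter.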
